A study of Homo sapiens with 6 samples.

Results

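The aldo-keto and carbonyl reductases described here are 10 genes of the NADPH-dependent enzymes that reduce aldehydes and ketones to alcohols: AKR1C1, AKR1C2, AKR1C3, AKR1B1, AKR1B10, AKR1E2, AKR7A2, CBR1, CBR3 and CBR4. They were taken by gene name from 45019 rows, with earlier results of the same contrast known, including that AKR1C1 and AKR1C2 were lower after treatment. Their levels are therefore given as a description, with no test. Of the 10 genes, 8 had a mean normalized count of at least 10 and 2, CBR1 and CBR3, were listed at 0 in every library.

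RNA came from MDA-MB-468, an established basal-like breast cancer cell line, and was sequenced as total RNA. The treated cells received 100 µM DETA/NO, a donor that releases nitric oxide slowly in the medium, for 10 days, and the other cells were untreated. The same culture protocol stands on the labels of all samples: dishes were trypsinised, pooled within a replicate and replated every 48 h, with 4 h to attach before the donor, and the handling of untreated dishes is not described apart from it. The series addresses transcription under nitric oxide, in connection with inhibition of FTO, which removes m6A from RNA. There were 3 labelled samples per group. DETA/NO samples 1 and 2 held identical values in all 45019 rows and count here as a single library (D12), beside the third (D3), which leaves n = 2 for DETA/NO and n = 3 for untreated cells (U1, U2 and U3). Where a value is given without a library, 1 library at a time was left out.

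Aldo-keto reductases fold as a barrel and take hydride from NADPH, whereas carbonyl reductases belong to the short-chain dehydrogenases. The AKR1C enzymes act on ketosteroids and prostaglandins, and the AKR1B enzymes on glucose, retinal and aldehydes formed by lipid peroxidation. In human cells AKR1B10 and the AKR1C genes are known targets of NRF2, the transcription factor that KEAP1 holds back until it is modified by electrophiles.

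AKR1C1, AKR1C2 and AKR1C3 lie side by side on chromosome 10 and are near-copies, which bears on how far their reads can be told apart. In the GENCODE release 29 annotation of GRCh38, AKR1C1 spans 4963253 to 4983283 on the plus strand, AKR1C2 4987400 to 5018031 on the minus strand and AKR1C3 5035354 to 5107686 on the plus strand. Their coding sequences have 969 bases each. AKR1C1 and AKR1C2 are 98.04% identical, with 19 differing bases, while AKR1C3 is 91.43% identical to AKR1C1 and 91.02% to AKR1C2. The stretch below, coding bases 43 to 162 counted from the start codon, is shown because 10 of the 19 differences between AKR1C1 and AKR1C2 fall in it. Capitals mark every position at which the 3 genes are not all alike.
AKR1C1: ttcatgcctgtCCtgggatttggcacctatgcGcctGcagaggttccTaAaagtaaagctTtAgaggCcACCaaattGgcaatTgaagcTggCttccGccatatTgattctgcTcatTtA
AKR1C2: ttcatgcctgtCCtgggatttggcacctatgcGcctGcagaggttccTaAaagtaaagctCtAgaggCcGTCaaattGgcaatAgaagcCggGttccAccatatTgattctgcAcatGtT
AKR1C3: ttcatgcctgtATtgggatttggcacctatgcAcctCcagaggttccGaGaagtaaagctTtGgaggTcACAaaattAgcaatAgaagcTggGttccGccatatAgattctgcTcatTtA
Outside such stretches the genes share long runs, the longest being 186 bases between AKR1C1 and AKR1C2. Of the windows of 50 coding bases, 54.35% in AKR1C1, 57.07% in AKR1C2 and 23.04% in AKR1C3 also occurred in another gene, and at 100 bases these shares were 20.69%, 26.44% and 9.77%. The read length and the handling of reads that match several genes are not given in the sources used here. The split of reads among AKR1C1, AKR1C2 and AKR1C3 is therefore uncertain. AKR1B10 shared 28.48% of its 50-base coding windows with other genes, AKR1B15 among them, AKR7A2 10.21% and AKR1B1 7.23%. AKR1E2, CBR1, CBR3 and CBR4 shared none.

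The promoters of the 4 genes that stood furthest from an equal level are shown from 250 bases before to 50 bases after the start site, from RefSeq on GRCh38.p14. These are AKR1C1 at chr10:4963165-4963464 (plus strand), AKR1C2 at chr10:5003808-5004107 (minus), AKR1C3 at chr10:5048531-5048830 (plus) and AKR1B1 at chr7:134459051-134459350 (minus). Capitals mark matches to CCAAT, the CCAAT box, on either strand.
AKR1C1: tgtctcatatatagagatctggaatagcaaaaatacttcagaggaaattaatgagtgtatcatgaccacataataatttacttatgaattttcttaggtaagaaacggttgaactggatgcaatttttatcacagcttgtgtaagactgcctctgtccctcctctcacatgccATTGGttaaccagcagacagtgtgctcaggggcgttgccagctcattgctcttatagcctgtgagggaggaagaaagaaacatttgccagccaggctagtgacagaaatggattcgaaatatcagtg
AKR1C2: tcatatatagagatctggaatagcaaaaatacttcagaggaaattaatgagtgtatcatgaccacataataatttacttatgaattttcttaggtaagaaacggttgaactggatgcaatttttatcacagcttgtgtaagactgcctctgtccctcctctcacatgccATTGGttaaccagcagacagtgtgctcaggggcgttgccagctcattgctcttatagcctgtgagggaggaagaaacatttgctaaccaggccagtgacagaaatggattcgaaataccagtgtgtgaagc
AKR1C3: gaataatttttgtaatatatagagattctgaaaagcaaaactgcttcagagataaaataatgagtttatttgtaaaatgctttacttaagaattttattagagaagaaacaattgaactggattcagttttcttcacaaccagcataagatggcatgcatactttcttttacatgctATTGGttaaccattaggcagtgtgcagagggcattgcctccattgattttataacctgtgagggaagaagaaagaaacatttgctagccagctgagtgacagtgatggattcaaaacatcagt
AKR1B1: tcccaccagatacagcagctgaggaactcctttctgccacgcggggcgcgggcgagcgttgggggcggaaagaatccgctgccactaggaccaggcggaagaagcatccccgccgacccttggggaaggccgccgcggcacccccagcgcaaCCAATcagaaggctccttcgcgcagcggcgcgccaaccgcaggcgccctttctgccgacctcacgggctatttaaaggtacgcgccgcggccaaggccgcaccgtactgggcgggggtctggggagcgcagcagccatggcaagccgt
The AKR1C1 and AKR1C2 windows matched at 288 of 308 aligned positions (93.51%), and AKR1C3 matched AKR1C1 at 73.46%. Each of the 4 windows held 1 CCAAT box, at -77 in AKR1C1, -81 in AKR1C2, -73 in AKR1C3 and -98 in AKR1B1, a motif found in 34.61% of all 35116 promoters of that length. AKR1C3 and AKR1B1 each have another RefSeq start site, not shown, with the motif at -86 and 42 from that site. The antioxidant response element core TGACNNNGC, the sequence NRF2 is known to bind, was searched on both strands and occurred in 13.35% of all promoters. None of the 4 windows held it, which says only that these letters are not in these windows. AKR7A2 held it 3 times, the same matches recurring in the overlapping windows of its start sites, and CBR1 once. RefSeq start sites of AKR1E2 and CBR4 were searched too, without a match, and AKR1B10 and CBR3 have no entry in the table used.

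Values are the deposited normalized read counts. Libraries held 28897422 to 34637343 recovered reads. The group difference is on the log2(value + 1) scale, DETA/NO minus untreated, with its standard error. That error is the moderated one from limma, drawn toward the trend over all tested genes. It is not the spread of that gene's libraries alone. EGFR, amplified in this line, averaged 246909 in DETA/NO cells and 222201 in untreated cells, and KRT5, KRT8, KRT17 and EPCAM of the basal-like list were abundant in every library. PGR stayed under 6 in every library, ERBB2 and ESR1 did not. The marker calls below are those of limma, which called 21.7% of all tested genes higher and 21.7% lower. Of the other cell type lists, the fibroblast sum was 1085 to 1121 in DETA/NO and 770.1 to 819.8 in untreated libraries, with THY1 and POSTN at 0 and 2 of 2 tested markers called higher. Endothelial markers summed to 998.4 to 1100 in DETA/NO and 749.5 to 773.2 in untreated libraries, with 5 of 7 tested called higher (3 without D3). Adipocyte markers summed to 1624 to 1649 in DETA/NO and 1058 to 1166 in untreated libraries, nearly all of it PPARG, with FABP4 at 0, 1 of 2 tested called higher and 1 lower (0 lower without U2 or U3 or D12 or D3). Immune markers summed to 3035 to 3100 in DETA/NO and 3205 to 3340 in untreated libraries, with CD68 and FCGR3A at 0, 2 of 4 called higher and 1 lower. In the basal-like list 6 of 15 were called higher and 2 lower (1 lower without D12). The 45S ribosomal RNA precursor took 0.393% and 0.396% of values in DETA/NO libraries and 0.253% to 0.305% in untreated libraries, and mitochondrial genes took 8.49% and 8.93% in DETA/NO libraries and 9.21% to 9.52% in untreated libraries. What these differences contribute to the reductase values was not tested.

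The ketosteroid and prostaglandin reductases of the AKR1C cluster were lower in DETA/NO cells, all 3 by a similar amount. AKR1C2, which inactivates dihydrotestosterone, had normalized counts of 795.6 and 722.6 in DETA/NO libraries, against 1384, 1392 and 1271 in untreated libraries. The groups did not overlap, and the log2 difference of -0.83 ± 0.057 (SE) corresponds to a mean 1.78 times as high in untreated cells. In bulk RNA, fewer cells with a transcript and less of it per cell cannot be told apart. AKR1C1, which converts progesterone to a less active form, had 599.5 and 529.9 in DETA/NO libraries, against 989.2, 1032 and 892.8 in untreated libraries. Every DETA/NO library lay below every untreated one, at a log2 difference of -0.78 ± 0.067. AKR1C3, which makes testosterone from androstenedione and reduces prostaglandins D2 and H2, had 78.7 and 58.9 in DETA/NO libraries, against 129.0, 119.7 and 109.1 in untreated libraries. Its groups were also apart, with a log2 difference of -0.80 ± 0.156. That value rests on few reads, 71 and 62 in DETA/NO and 118 to 135 in untreated libraries, and it was -1.003 without D12 and -0.59 without D3.

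**Figure D1:**
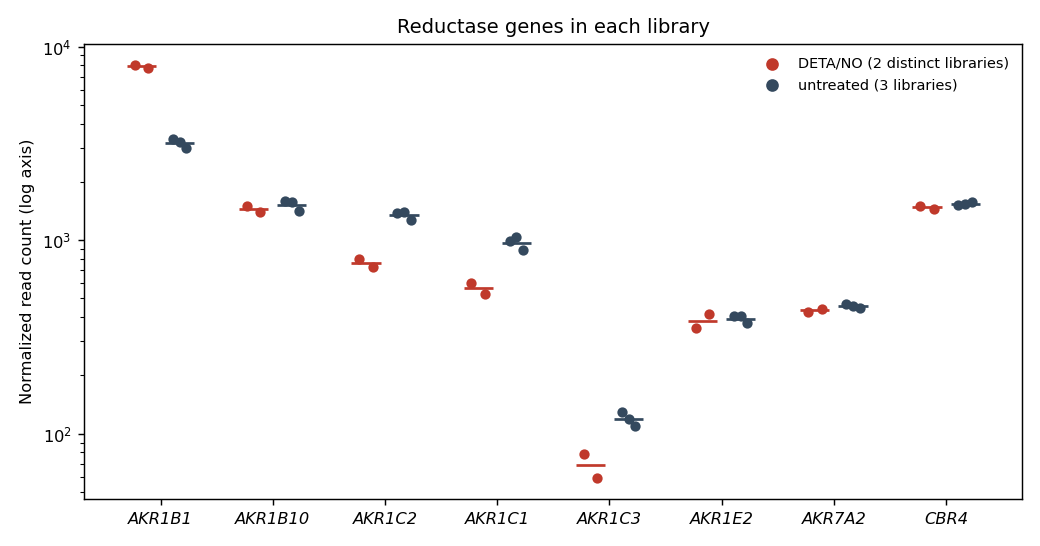
Normalized read counts (log axis) of the 8 reductase genes above 0 in each library, DETA/NO in red and untreated in dark blue, with horizontal bars at the group means. AKR1B1 averages 7916 in DETA/NO and 3191 in untreated libraries, the 3 AKR1C genes are lower in DETA/NO, and the other 4 lie close together.

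Within a library the AKR1C genes kept nearly the same proportions. What reads shared among these genes contribute to that was not tested. AKR1C1 over AKR1C2 was 0.753 and 0.733 in DETA/NO libraries, against 0.715, 0.741 and 0.703 in untreated libraries, ranges that overlap. AKR1C3 over AKR1C2 was 0.0989 and 0.0815 in DETA/NO libraries, against 0.0932, 0.0860 and 0.0858 in untreated libraries, again overlapping. The sum of the 3 genes was 1474 and 1311 in DETA/NO libraries, against 2502, 2544 and 2273 in untreated libraries. This sum does not depend on how reads were split among the 3 genes. It would still depend on whether reads matching several genes were dropped or counted more than once. AKR1E2, which reduces anhydrofructose, lies further along the same arm of chromosome 10 (4786629 to 4848062) and was 352.4 and 413.1 in DETA/NO libraries, against 404.3, 404.2 and 372.4 in untreated libraries. Its groups overlapped, and its log2 difference was -0.04 ± 0.085, or 0.07 and -0.16 with either D12 or D3 left out.

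The aldose reductase AKR1B1 went the other way. This enzyme reduces glucose to sorbitol in the polyol pathway and also reduces lipid aldehydes and prostaglandin H2. It had 8064 and 7767 in DETA/NO libraries, against 3332, 3231 and 3010 in untreated libraries. The groups were far apart, with a log2 difference of 1.31 ± 0.038 and a mean 2.48 times as high in DETA/NO cells. AKR1B1 lies on chromosome 7 from 134442350 to 134459284 on the minus strand. AKR1B10, a retinal reductase on the same chromosome from 134527592 to 134541408 on the plus strand, had 1493 and 1397 in DETA/NO libraries, against 1585, 1577 and 1415 in untreated libraries. Its groups overlapped, at a log2 difference of -0.08 ± 0.052. AKR1B10 over AKR1B1 was accordingly 0.185 and 0.180 in DETA/NO libraries, against 0.476, 0.488 and 0.470 in untreated libraries.

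AKR7A2, a succinic semialdehyde and aflatoxin aldehyde reductase on chromosome 1, had 427.7 and 438.7 in DETA/NO libraries, against 465.4, 459.1 and 447.3 in untreated libraries. CBR4, a mitochondrial carbonyl reductase on chromosome 4 that takes part in fatty acid synthesis, had 1498 and 1452 in DETA/NO libraries, against 1513, 1546 and 1566 in untreated libraries. For both genes the DETA/NO libraries lay below the untreated ones by a narrow margin, with log2 differences of -0.08 ± 0.075 and -0.06 ± 0.046. Other genes overlap 44.22% of the span of CBR4, PALLD among them.

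CBR1, the main cytosolic carbonyl reductase, which reduces quinones, prostaglandin E2 and anthracyclines, and its relative CBR3 were listed at 0 in all 5 libraries. Other annotated genes overlap 100% of both spans on chromosome 21, SETD4 and AP000688.1 at CBR1 (36069941 to 36073166) and CBR3-AS1 at CBR3 (36134912 to 36146566). Of all protein-coding genes with the whole span overlapped and some exon overlap, 1176 of 1222 (96.24%) were listed at 0 in every library, and with no exon overlap 647 of 659 (98.18%). Of those with a span that no gene overlaps, 1003 of 7062 (14.2%) were. No level of CBR1 or CBR3 is read from these values. Among the overlapping genes, SETD4 averaged 1590 in DETA/NO and 1518 in untreated cells (adjusted p = 0.254), with no call. AP000688.1 averaged 32.1 in DETA/NO and 29.8 in untreated cells (adjusted p = 0.852), and CBR3-AS1 135.0 in DETA/NO and 163.2 in untreated cells (adjusted p = 0.0725), again without a call.

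Of the 8 genes above the filter, 1 had DETA/NO libraries all above the untreated ones and 5 all below, against 61.2% of 16409 tested genes with separate groups, 30.4% higher and 30.8% lower. Nothing is read from that share, since the genes were chosen on this contrast. The difference passed 1.5-fold in 4 of the 8 genes (50%), 1 higher and 3 lower, against 12.2% of all tested genes, 980 higher and 1023 lower. Nothing is read from this share either, for the same reason. The median log2 difference was -0.08 over the 8 genes and -0.00016 over all tested genes. AKR1B1 had 192 genes with a larger rise (1.17%), and AKR1C2, AKR1C3 and AKR1C1 had 461, 520 and 548 genes with a larger fall. Within the DETA/NO group AKR1C3 varied most, at 0.41 on the log2 scale between the libraries, and AKR7A2 least in size, at -0.04 (D12 minus D3).

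Summed over the 8 genes, the normalized counts were 13309 and 12779 in DETA/NO libraries, against 9801, 9762 and 9084 in untreated libraries. AKR1B1 made up 60.6% and 60.8% of this sum in DETA/NO libraries, against 34.0%, 33.1% and 33.1% in untreated libraries. The AKR1C genes together made up 11.1% and 10.3% in DETA/NO libraries, against 25.5%, 26.1% and 25.02% in untreated libraries. These shares are of counts, not scaled by length, and favour genes with more counted sequence, be it exon or gene span.

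**Figure D2:**
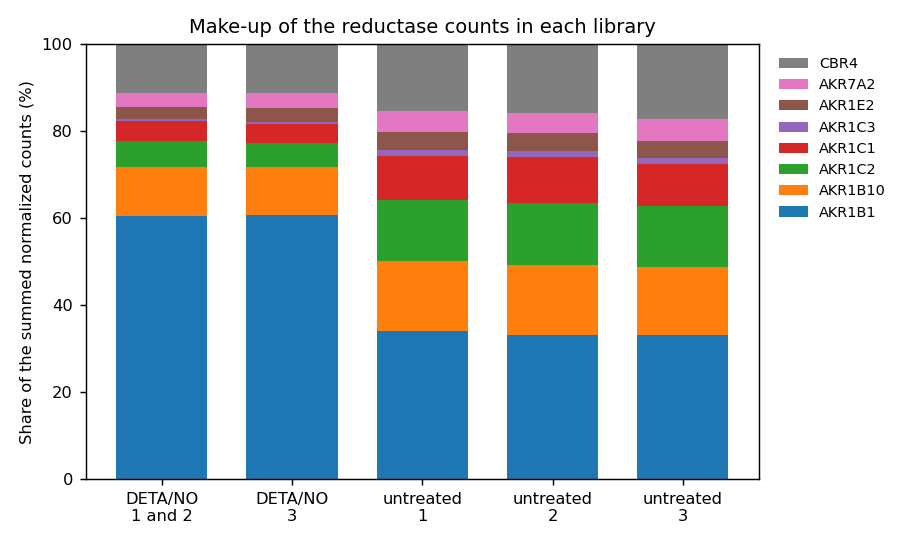
Share of the summed normalized counts (%) that each of the 8 reductase genes takes in each library, DETA/NO libraries at the left and untreated at the right. AKR1B1 takes about 61% of the sum in DETA/NO and about 33% in untreated libraries.

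Per kilobase of annotated exon, AKR1B1 averaged 2163 ± 57.5 normalized counts in DETA/NO cells (SD, n = 2) and 871.9 ± 45.0 in untreated cells (SD, n = 3). AKR1B10 averaged 828.4 ± 38.8 in DETA/NO cells and 874.8 ± 55.0 in untreated cells, so that on this scale the libraries of these genes overlapped in untreated cells and were apart in DETA/NO cells. CBR4 and AKR7A2 came next per exon kilobase in both groups. AKR1C2 averaged 117.5 ± 8.0 in DETA/NO cells and 208.8 ± 10.5 in untreated cells, and on this scale stood below AKR1E2 (158.3 ± 17.8) in DETA/NO cells and above it (162.9 ± 7.6) in untreated cells. AKR1C1 averaged 64.4 ± 5.6 in DETA/NO cells and 110.8 ± 8.1 in untreated cells, and AKR1C3 15.2 ± 3.1 in DETA/NO cells and 26.3 ± 2.2 in untreated cells. AKR1C1 stood above AKR1C3 in both groups, without overlap. The order depends on the length used, and the counting settings are not given in the sources used here. Of the protein-coding genes with the whole span but no exon overlapped, 647 of 659 (98.18%) were listed at 0. Counting over exons alone can therefore not be taken for granted, and which length suits these counts was not tested. Per kilobase of gene span free of other genes, AKR1B1 averaged 467.4 in DETA/NO and 188.4 in untreated cells, and AKR1B10 104.6 in DETA/NO and 110.4 in untreated cells, so that AKR1B1 was the higher of the pair in both groups. On that scale AKR7A2 (53.6 in DETA/NO and 56.6 in untreated cells), AKR1C1 (28.2 in DETA/NO and 48.5 in untreated cells) and AKR1C2 (26.5 in DETA/NO and 47.2 in untreated cells) followed. CBR4, at 18.0 in DETA/NO and 18.9 in untreated cells, AKR1E2, at 6.23 in DETA/NO and 6.41 in untreated cells, and AKR1C3, at 0.953 in DETA/NO and 1.65 in untreated cells, came below AKR1C2 in both groups.

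The genes closest to AKR1C2 in their pattern over the 5 libraries, by root mean square distance of centred log2 values among tested genes, were AL512343.2 (0.0397), LINC00271 (0.0409), NOSTRIN (0.0412), HPSE2 (0.0417) and AL157937.1 (0.0436). LINC00271 had 84.2 and 76.9 in DETA/NO libraries, against 146.2, 138.3 and 129.4 in untreated libraries. HPSE2 had 113.0 and 97.8 in DETA/NO libraries, against 187.3, 199.1 and 169.1 in untreated libraries. All 5 were below AKR1C2 in every library. NOSTRIN and AL157937.1 rest on few reads. NOSTRIN had 15 and 16 in DETA/NO and 28 to 30 in untreated libraries. AL157937.1 had 10 in each DETA/NO library and 19 to 20 in untreated libraries.

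The genes beside the reductases were tested across all genes, where limma called 43.4% at an adjusted p under 0.05, 21.7% higher and 21.7% lower. Before the AKR1C cluster, the nearest protein-coding gene outside the set was KLF6, far off at 3775996 to 3785281, where AKR1E2 starts at 4786629. KLF6 was higher (log2 difference 0.30 ± 0.031, adjusted p = 3.01e-09), while AKR1C4, AKR1C8P and UCN3, on the other side, were under the filter. AKR1C4, the liver form, had 5.54 and 0.950 in DETA/NO libraries, against 3.82, 5.89 and 2.77 in untreated libraries. At the AKR1B cluster, AKR1B15 had 955.1 and 1068 in DETA/NO libraries, against 1023, 1131 and 1104 in untreated libraries, with no call (log2 difference -0.10 ± 0.058, adjusted p = 0.157; -0.18 and 0.0333 without D3). SLC35B4 had a log2 difference of -0.13 with no call (adjusted p = 0.0585; 0.0176 and -0.17 without U3). BPGM was called higher by 0.13 (adjusted p = 0.0231), and lost the call without U1 or U3 or D3 (adjusted p 0.0547, 0.0541 and 0.166). Beside AKR7A2, MRTO4 was higher by 0.44 (adjusted p = 6.79e-09), AKR7A3 differed by -0.16 (adjusted p = 0.652), and PQLC2 was called higher by 0.27 (adjusted p = 0.0364) but not without U2 (0.225) or D12 (0.131) or D3 (0.0893). RUNX1 and PALLD were higher by 0.57 and 0.32 (adjusted p = 2.57e-16 and 1.32e-05). DDX60L was higher by 0.90 (adjusted p = 0.00997), but not called without U2 (0.0523) or U3 (0.0673). DOP1B and SH3RF1 differed by -0.01 and -0.03 (adjusted p = 0.875 and 0.583).

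**Figure D3:**
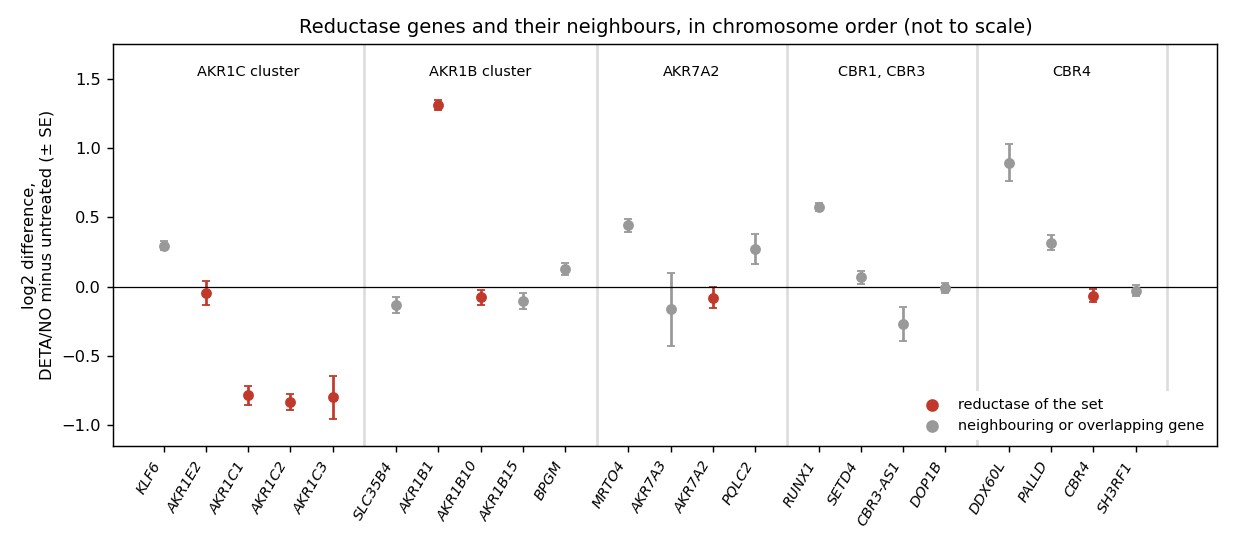
Log2 difference, DETA/NO minus untreated, with its moderated standard error, for the reductase genes (red) and neighbouring or overlapping genes (grey). Genes are in chromosome order within each locus and not to scale. The 3 AKR1C genes stand near -0.8 while KLF6 and AKR1E2 do not, and AKR1B1 stands at 1.31 beside AKR1B10 and AKR1B15 near -0.1.

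The lists that follow hold other genes of the pathways in which the reductases act, each read beside the 43.4% called among all genes, with an all-gene median of -0.00016. Other settings are named where they move a list's count by over 1.5 times, plain limma being the test without its trend and robust options. Among the regulators of NRF2, 8 of 16 tested genes were called higher and 2 lower, with a median log2 difference of 0.09. NFE2L2, which encodes NRF2, averaged 8507 ± 42.5 in DETA/NO cells and 9243 ± 194 in untreated cells (log2 difference -0.12, adjusted p = 0.00184), with 67.1% of its annotated span overlapped by other genes. KEAP1 averaged 4423 in DETA/NO and 4482 in untreated cells (adjusted p = 0.692). BACH1, a repressor at NRF2 sites, averaged 2335 in DETA/NO and 2319 in untreated cells (adjusted p = 0.865). BACH2 was higher by 1.63 (adjusted p = 1.03e-09), the kinase FYN by 1.13 (adjusted p = 7.29e-08) and SQSTM1, which binds KEAP1, by 0.23 (adjusted p = 6.67e-07). BTRC was called lower, at -0.17 (adjusted p = 0.0115), but not without U1 (0.0621) or D3 (0.0866). The count of higher genes was 5 without U1 or U2 or D12, and 4 without D3, and that of lower genes was 1 without U1 or D3. The counts were 3 higher and 0 lower under plain limma, 5 and 1 under DESeq2, 5 and 2 after quantile normalization, and 6 and 1 with the replicate block (shared library as number 2).

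Of the NRF2 target genes outside the reductases, 10 of 28 tested were called higher and 11 lower, with a median of -0.05. HMOX1, which breaks down heme, averaged 456.2 ± 7.4 in DETA/NO cells and 368.7 ± 14.1 in untreated cells (log2 difference 0.31, adjusted p = 0.00194). TXNRD1 and TXN of the thioredoxin system were higher by 0.38 and 0.21 (adjusted p = 0.000227 and 5.24e-06), GCLM of glutathione synthesis by 0.21 (adjusted p = 0.00184), the exporter ABCC3 by 0.21 (adjusted p = 6.57e-05), and the ferritin gene FTH1, with 73.0% of its span overlapped, by 0.61 (adjusted p = 4.67e-06). NQO1, a quinone reductase, averaged 4901 ± 73.6 in DETA/NO cells and 5518 ± 286 in untreated cells (log2 difference -0.17, adjusted p = 0.000449). The NADPH-forming enzymes IDH1 and PGD were lower, at -0.55 and -0.33 (adjusted p = 2.28e-15 and 6.53e-10), and the epoxide hydrolase EPHX1 at -0.44 (adjusted p = 3.38e-10). Under limma without its trend and robust options, NFE2L2, NQO1, GCLM and ABCC3 lost their calls (adjusted p 0.0864, 0.0963, 0.0938 and 0.0582), and the list's counts were 7 higher and 7 lower.

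Of the polyol pathway and osmotic response genes, 6 of 13 tested were called higher and 0 lower by limma, edgeR and DESeq2 alike (0 lower also at an unadjusted p under 0.05 in limma), with a median of 0.20. The amino acid transporter SLC38A2 averaged 20081 ± 383 in DETA/NO cells and 14512 ± 125 in untreated cells (log2 difference 0.47, adjusted p = 6.33e-15). The glucose transporter SLC2A1 was higher by 0.24 (adjusted p = 9.41e-07) and FN3K, which removes sugar adducts from proteins, by 0.55 (adjusted p = 1.95e-07). The other called genes were the osmotic response factor NFAT5 (0.25), the taurine transporter SLC6A6 (0.20) and the chaperone HSPA4L (0.43). The enzymes that follow AKR1B1 in the polyol pathway were not called, SORD at 0.11 (adjusted p = 0.226) and KHK at 0.02 (adjusted p = 0.926). SLC5A3 was listed at 0, with 100% of its span overlapped by other genes, so no level is read from it.

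Of the prostaglandin genes, 2 of 16 tested were called higher and 4 lower, with a median of 0.03. The transporter SLCO2A1 was higher by 0.28 (adjusted p = 0.000495). PTGES, a prostaglandin E synthase, was lower, at -0.17 (adjusted p = 0.00135; 0.0793 without D12). PRXL2B, a prostaglandin F synthase, was lower, at -0.29 (adjusted p = 0.0273) and lost the call without U1 or U2 or D12 or D3 (adjusted p 0.0738 to 0.103). The lower count was 2 without U1 or D12, and 1 without D3, under DESeq2 or under plain limma. With a filter at a mean of 50 the counts were 1 higher and 2 lower. Of the steroid genes, 4 of 17 were called higher and 7 lower, with a median of -0.13. The glucocorticoid receptor NR3C1 was higher by 0.42 (adjusted p = 2.59e-11), SRD5A3 by 0.50 (adjusted p = 0.00319) and ESR1 by 0.27 (adjusted p = 0.000675; 0.104 without D3). The steroid sulfatase STS was lower, at -0.35 (adjusted p = 1.71e-09), FKBP5, which binds steroid receptors, at -0.25 (adjusted p = 1.48e-06) and PAPSS2, which makes the sulfate donor, at -0.34 (adjusted p = 2.58e-06). Plain limma called 1 steroid gene higher and 6 lower.

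Of the retinoid genes, 5 of 21 tested were called higher and 10 lower, with a median of -0.21. RARRES1 averaged 36362 ± 1054 in DETA/NO cells and 49836 ± 241 in untreated cells (log2 difference -0.46, adjusted p = 3.77e-15), PLAAT4 was lower, at -1.14 (adjusted p = 8.76e-22) and the retinoic acid hydroxylase CYP26B1 at -0.93 (adjusted p = 2.67e-11). The retinal dehydrogenase ALDH1A2 was higher by 0.38 (adjusted p = 1.23e-06). LRAT and ALDH1A3, the second with 82.3% of its span overlapped, were called higher by 0.35 and 0.19 (adjusted p = 0.0208 and 0.0172). LRAT lost the call without U1 (0.0749) or D12 (0.277), and ALDH1A3 without U1 (0.0648) or U2 (0.0542) or D3 (0.625). The higher count was 2 without U1 or D12, under DESeq2 or under plain limma, and 3 without U2 or D3 or with the replicate block (shared library as number 2).

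Of the other aldo-keto reductases, 2 of 7 tested were called higher and 1 lower, with a median of 0.07. AKR1A1, the aldehyde reductase, had 1167 and 1226 in DETA/NO libraries, against 1545, 1524 and 1670 in untreated libraries (log2 difference -0.40 ± 0.050, adjusted p = 7.04e-08). The higher count was 1 without U1 or U3 or D3 and 0 without D12, and the lower count was 2 without D3. The higher count was 1 under DESeq2, plain limma or the replicate block (shared library as number 2), and 0 with a filter at a mean of 50, which leaves fewer genes tested. Of the other short-chain dehydrogenases, 5 of 35 were called higher (3 without D12 or under plain limma, 2 under DESeq2, 9 with identical samples counted separately) and 12 lower, with a median of -0.08. HSD17B4 and HSD17B7 were lower, at -0.51 and -0.67 and WWOX at -0.44 (adjusted p = 3.84e-14, 7.71e-11 and 5.63e-11). DHRS2 and UXS1 were higher by 1.59 and 0.28 (adjusted p = 6.54e-08 and 1.18e-05), and HSD17B10 by 0.14 (adjusted p = 0.0175), which lost the call without U1 (0.0802) or U2 (0.0734) or D3 (0.163). Of the other carbonyl, quinone and enal reductases, 4 of 21 were called higher (2 without U1 or U2 or D3 or under plain limma) and 6 lower (4 under plain limma), with a median of -0.02. VAT1 and PTGR1 were higher by 0.46 and 0.50 (adjusted p = 1.06e-11 and 2.41e-06), with 56.05% of the span of PTGR1 overlapped. ALDH2 and ALDH1A1, which oxidise aldehydes, and NQO2 were lower, at -0.94, -0.80 and -0.32 (adjusted p = 5.20e-12, 9.50e-11 and 1.09e-06). Over all 167 tested genes of these lists, 44 were called higher and 48 lower.

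**Figure D4:**
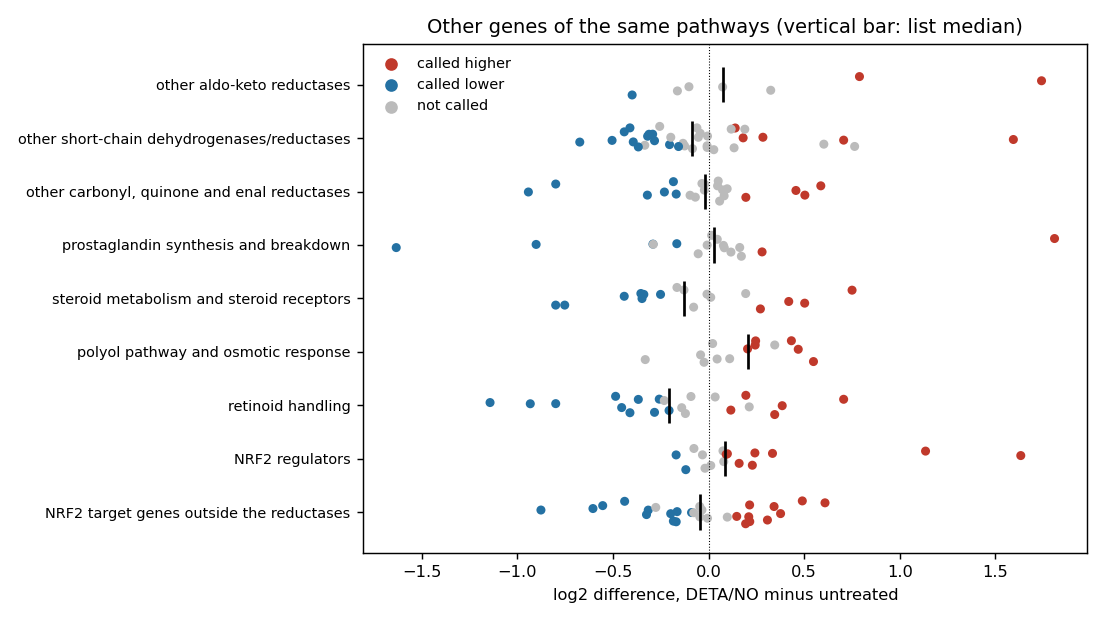
Log2 difference, DETA/NO minus untreated, of each tested gene in 9 lists of related genes, coloured by the limma call (red higher, blue lower, grey not called), with a black bar at each list median. Medians lie between -0.21 (retinoid handling) and 0.20 (polyol pathway and osmotic response).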

How the data were processed

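The authors deposited 6 tables with a normalized count for each gene, here of the unit signal. The submitters' processing notes list GRCh38 and, without order, R 4.2.2, DESeq2 1.38.3, featureCounts 2.0.3, Subread, deepTools 3.5.1, Bowtie2 2.5.0.0, TopHat2 2.1.1, MultiQC 1.14 and FastQC 0.11.9. Annotation, strand and counting settings are not given in the sources used here. Values were whole multiples of 1 factor per library in 100% of cases (tolerance 0.01), and reads were recovered from them.

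Groups came from the labels, and the identical DETA/NO files 1 and 2 were counted once. Nothing in the labels says that replicates are separate cultures beyond that dishes were pooled per replicate, so p-values measure the spread between these libraries, which may be technical. The main test was limma 3.58.1 (R 4.3.3), trend and robust eBayes, on log2(value + 1), a scale that understates changes of low genes. Genes with a mean of 10 or more were tested, with Benjamini-Hochberg adjustment. Alternatives were edgeR 4.0.16 and DESeq2 1.42.0 on recovered reads, further pseudocounts, filters and scalings, a block for replicate number, and omission of single libraries. Scripts were tested on simulated data.

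The reductases and all lists were chosen with earlier results of these data known. Named genes are the reductases, their neighbours and overlapping genes, NFE2L2, KEAP1, BACH1, NQO1, HMOX1, TXNRD1, GCLM and EGFR, the 5 most like AKR1C2, and from each list the 3 higher and 3 lower called genes of smallest adjusted p whose higher group averaged 100 or more. Positions are from GENCODE release 29 (GRCh38), promoters from RefSeq (GRCh38.p14). Python 3.11.15 was used for other steps. Values of some marker genes are not reported here.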

Additional observations from a re-analysis of the deposited data

How the results depend on the processing

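Over all settings the log2 difference stayed between 1.27 and 1.34 for AKR1B1, -0.87 and -0.69 for AKR1C1, -0.90 and -0.76 for AKR1C2, -0.13 and -0.03 for AKR1B10, -0.10 and -0.06 for AKR7A2, and -0.09 and -0.04 for CBR4. Without 1 untreated library or D3, AKR1C3 ranged from -0.8589 to -0.5906 and AKR1E2 from -0.1583 to -0.0242, and without D12 they were at -1.0027 and 0.0704. Among genes that were not called, the same omissions of an untreated library or D3 gave -0.2273 to 0.0256 for AKR7A3, -0.2707 to 0.1782 for AP000688.1, -0.0233 to 0.0513 for BACH1 and -0.0131 to 0.0251 for DOP1B, and without D12 AKR7A3 was at -0.3525, AP000688.1 at 0.4173 and KEAP1 at 0.0153. BACH1 was -0.0031 after quantile normalization. With the identical samples counted separately, DOP1B was 0.0024 and AP000688.1 -0.0413. limma without trend and robust options called 2262 genes higher in place of 3565, and 26 listed genes in place of 44, and ended the calls of ABCC3, ALDH1A3, BPGM, BTRC, ESR1, GCLM, HSD17B10, LRAT, NFE2L2, NQO1, PQLC2, PRXL2B, PTGES and SRD5A3. DESeq2 ended those of BPGM, BTRC, HSD17B10, LRAT, NOSTRIN, PQLC2 and PRXL2B, and quantile normalization those of EGFR and PRXL2B. Quantile normalization assigns values by rank and put EGFR at a log2 difference of 0.0. The cause of the other lost calls was not tested. The labels do not say that replicate numbers mark a shared day. Same-numbered libraries correlated in their deviations from the group means at 0.029 (U1 and D12), 0.001 (U2 and D12) and 0.03 (U3 and D3). The deviations of D12 and D3 are equal and opposite, so these values are not independent. With a replicate block 3320 genes were called higher and 3285 lower (3143 and 3178 with the shared library as number 2), AKR1C2 was at -0.81, and AP000688.1 at -0.0306, as it was without U2. The block ended the calls of HSD17B10 (adjusted p 0.0552 and 0.0659), PRXL2B (0.0762 and 0.0867) and NOSTRIN (0.0704 and 0.0567) under either numbering, of PQLC2 (0.23) with the shared library as number 1, and of BTRC (0.0544) and LRAT (0.0559) with it as number 2. Among marker lists, limma without trend and robust options called 4 basal-like genes higher and 0 lower, 3 endothelial, 1 fibroblast and 1 adipocyte gene higher, a filter at 50 left 3 endothelial and 1 immune gene called higher, DESeq2 called 7 basal-like genes higher and 1 lower, and the lower adipocyte call was lost under quantile normalization, DESeq2, the first block and limma without those options. With 2 DETA/NO libraries the spread within that group is poorly known.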
